A study of Mus musculus with 16 samples.

Results

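Genes that write, copy, remove or guard DNA methylation were followed across 4 lines of mouse induced pluripotent stem cells (iPSCs). The 10 genes were Dnmt1, Uhrf1, Dnmt3a, Dnmt3b, Dnmt3l, Tet1, Tet2, Tet3, Tdg and Zfp57. They were chosen by gene symbol and not by a threshold on measured values, although earlier results of these data were known, and all 10 were found among the 43984 genes of the histone mark table and among the 55471 genes of the CpG methylation table. An iPSC line is grown from a somatic cell that has been returned to a pluripotent state. Lines PTC11 and PTC12 were made from kidney proximal tubule cells (PTC), and lines TTF1 and TTF4 from tail tip fibroblasts (TTF), all from adult littermates heterozygous for the SLC34a1-GCE, tdTomato and OKMS-250 transgenes together with rtTAROSA (neo-in). The mice had been fed tamoxifen, which activates the Cre recombinase that the SLC34a1 promoter drives in mature proximal tubule cells. The fibroblasts do not use that promoter, so they were given Cre on a plasmid that does not integrate. In both cell types doxycycline then switched on Oct4, Klf4, c-Myc and Sox2. Every line was 1 picked clone at early passage that no longer needed doxycycline, and the study's methods describe such lines as kept on mouse embryonic fibroblast feeders. The comparison addresses whether the cell of origin left a mark on the chromatin of these genes.

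The 4 assays gave 16 libraries. ChIP-seq measured H3K4me3 (trimethylation of lysine 4 on histone H3, found at the starts of active genes), H3K36me3 (found over gene bodies that are being transcribed) and H3K27me3 (found at repressed genes). Nanopore sequencing measured CpG methylation. For each line 1 library of H3K4me3, 1 of H3K36me3 and 1 of methylation was available, so the line was the replicate. The study's methods describe ChIP in duplicate, but the spread within a line cannot be read from these libraries. The order of single lines therefore carries no error. For H3K27me3 the labels name PTC11 as the line of both PTC libraries. Histone values are input-subtracted RPKM (ChIP reads scaled to peak length and to the size of the library), averaged over the peaks of a gene, and a gene without a called peak has no value. Methylation values are fractions of methylated CpGs averaged within 1000 bp of the gene start. The tables hold neither read counts nor CpG coverage, so the number of reads behind each value is unknown. H3K4me3 values were listed for 15114, 19990, 19448 and 15368 genes in PTC11, PTC12, TTF1 and TTF4, and H3K36me3 values for 20381 to 29905 genes. Of 10 pluripotency markers, 9 had an H3K4me3 value in PTC11, PTC12 and TTF1 and 7 in TTF4, against 1 or 2 of 8 proximal tubule markers. Over all listed genes the share was 34.4% to 45.4%. Median methylation of the 10 pluripotency markers was 0.0278, 0.105, 0.0932 and 0.320 in PTC11, PTC12, TTF1 and TTF4. In TTF4 it ran from 0.0249 at Lin28a to 0.803 at Zfp42, and Dppa4 had 0.759. Zfp42 and Dppa4 had no H3K4me3 value in that line. Of 8 fibroblast markers, which feeder cells would share, 2 had a value in PTC11, 4 in TTF4 and 5 each in PTC12 and TTF1. In bulk chromatin a lower level in every cell and a mark carried by fewer cells cannot be told apart.

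Methyl groups are placed on unmethylated CpGs by the de novo enzymes Dnmt3a and Dnmt3b, for which Dnmt3l is a cofactor without activity of its own. At replication Dnmt1 copies the pattern onto the new strand, guided by Uhrf1, which binds the hemimethylated DNA behind the fork. Tet1, Tet2 and Tet3 oxidize methylcytosine, and the glycosylase Tdg cuts out the oxidized base so that repair can restore an unmethylated cytosine, while the zinc finger protein Zfp57 keeps methylation in place at imprinted regions. Pluripotent cells express both arms of this system.

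The starts of these genes differ widely in CpG content, which is shown first because the methylation values separated along it. The 250 bases directly upstream of 6 RefSeq starts are printed (build GRCm38.p6, the mm10 sequence), 5′ to 3′ on the strand of the gene, with each CpG in capitals. All 10 genes matched the RefSeq promoter table by symbol, which holds 32851 such stretches with a median of 6 CpGs. Dnmt3b, Dnmt3a and Tet2 are shown as CpG-rich starts, 2 with fractions below 0.2 in all lines and Dnmt3a with a higher one in TTF4. Zfp57 and 2 of the 3 RefSeq starts of Dnmt1 are shown as starts with fewer CpGs, near the median or, at the outer Dnmt1 start, below it. Dnmt3b (chr2:153649199-153649448, plus strand) holds 21 CpGs, Dnmt3a (chr12:3806730-3806979, plus strand) 38, and Tet2 (chr3:133544391-133544640, minus strand) 51. At least as many CpGs are found in 16.3%, 1.88% and 0.0670% of all such stretches.
Dnmt3b: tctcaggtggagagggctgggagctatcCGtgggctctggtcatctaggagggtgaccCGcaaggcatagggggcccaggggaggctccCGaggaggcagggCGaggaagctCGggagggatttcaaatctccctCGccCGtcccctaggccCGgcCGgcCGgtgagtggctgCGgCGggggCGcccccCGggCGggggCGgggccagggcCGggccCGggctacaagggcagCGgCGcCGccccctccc
Dnmt3a: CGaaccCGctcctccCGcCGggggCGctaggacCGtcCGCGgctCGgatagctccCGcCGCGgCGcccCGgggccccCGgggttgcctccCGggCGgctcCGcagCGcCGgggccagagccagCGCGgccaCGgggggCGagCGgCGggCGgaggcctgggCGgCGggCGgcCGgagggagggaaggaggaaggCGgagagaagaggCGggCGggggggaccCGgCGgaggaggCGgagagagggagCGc
Tet2: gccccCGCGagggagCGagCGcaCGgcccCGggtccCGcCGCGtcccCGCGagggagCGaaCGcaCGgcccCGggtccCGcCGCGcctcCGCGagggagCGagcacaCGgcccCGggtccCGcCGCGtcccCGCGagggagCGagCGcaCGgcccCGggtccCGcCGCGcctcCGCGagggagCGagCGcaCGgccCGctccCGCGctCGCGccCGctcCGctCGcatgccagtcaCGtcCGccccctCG

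Zfp57 (chr17:37000913-37001162, plus strand) holds 6 CpGs, a number reached by 50.4% of all such stretches. The outer Dnmt1 start (chr9:20959889-20960138, minus strand), which both tables use, holds 2 CpGs (81.2% have at least as many), and the middle one (chr9:20952980-20953229, minus strand) holds 7 (46.3%). The innermost RefSeq start of Dnmt1, at position 20952623 and not printed here, follows a CpG-rich stretch with 26 CpGs (9.59%). The RefSeq starts are those annotated, and which of them these cells use was not measured here.
Zfp57: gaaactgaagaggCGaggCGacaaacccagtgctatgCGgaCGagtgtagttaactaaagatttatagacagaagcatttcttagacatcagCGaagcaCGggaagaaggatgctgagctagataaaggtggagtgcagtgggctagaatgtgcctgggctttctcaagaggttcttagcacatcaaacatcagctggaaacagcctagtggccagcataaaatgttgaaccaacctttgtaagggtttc
Dnmt1 outer start: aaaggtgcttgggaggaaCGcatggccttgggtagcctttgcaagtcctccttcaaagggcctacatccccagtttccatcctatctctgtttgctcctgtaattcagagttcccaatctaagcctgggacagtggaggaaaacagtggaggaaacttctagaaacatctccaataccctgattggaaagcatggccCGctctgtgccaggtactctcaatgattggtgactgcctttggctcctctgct
Dnmt1 middle start: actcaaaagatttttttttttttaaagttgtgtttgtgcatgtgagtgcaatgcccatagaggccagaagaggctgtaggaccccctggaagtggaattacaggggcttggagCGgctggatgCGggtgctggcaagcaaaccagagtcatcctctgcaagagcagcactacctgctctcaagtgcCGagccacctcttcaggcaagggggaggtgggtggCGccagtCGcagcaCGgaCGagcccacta

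In the windows measured, CpG methylation was highest in TTF4 at all 10 genes, but the TTF and PTC lines did not separate. The windows of Dnmt3a, Tet1 and Tet3 held no annotated start of a coding transcript. The mean over all genes with a value was 0.372, 0.482, 0.379 and 0.649 in PTC11, PTC12, TTF1 and TTF4, that is 0.427 ± 0.0777 in PTC and 0.514 ± 0.191 in TTF (mean ± SD, n = 2). The difference of 0.0871 gave p = 0.667 in a two-sided exact permutation test over the 4 lines, in which the smallest p that can be reached is 0.333. TTF4 was the highest line at 75.4% of the 50657 genes with a value in all lines, so this place was not particular to the 10 genes. At 7 of the 10 genes TTF4 lay at least 0.2 above the next line, against 30.1% of all genes. These were Dnmt1, Uhrf1, Dnmt3a, Dnmt3l, Tet1, Tet3 and Zfp57. With the lines quantile normalized to 1 common distribution, TTF4 was highest at 7 of the 10 genes, against 25.7% of all genes. The exceptions were Dnmt3b, Dnmt3l and Tet2.

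**Figure D1:**
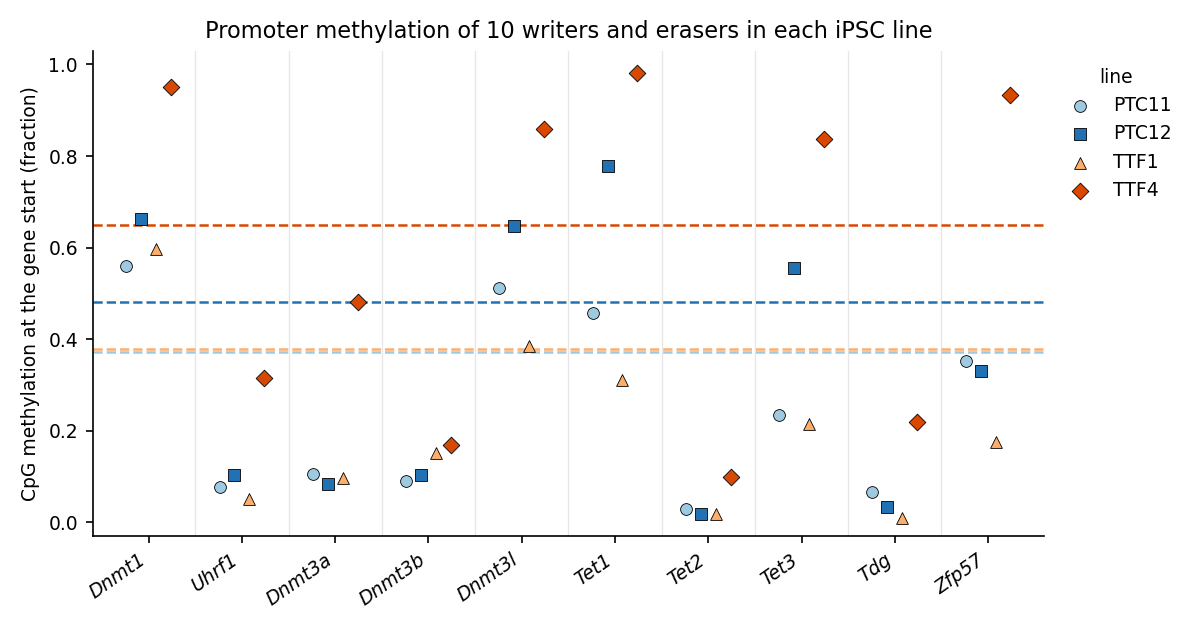
Fraction of methylated CpGs (vertical axis, 0 to 1) in the window measured at each of the 10 genes, 1 point per line. Dashed lines in the colour of each line give its mean over all genes. TTF4 is the top point at every gene, from 0.0991 at Tet2 to 0.982 at Tet1, while Dnmt3b stays between 0.0889 and 0.169 in all 4 lines.

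At the starts measured, the maintenance pair differed in level. For Dnmt1 this was the outer start alone, and its inner start group, with more CpGs, lay outside the window. The annotated start groups of Uhrf1 lay inside. The outer start of Dnmt1 (chr9:20907209-20959888, minus strand) was methylated at 0.559 in line PTC11, 0.663 in line PTC12, 0.597 in line TTF1 and 0.951 in line TTF4, above the mean of its line in all 4. Uhrf1 (chr17:56303321-56323486, plus strand) had fractions of 0.0766, 0.103, 0.0513 and 0.314 in the same order. Its TTF4 value was 0.212 above the next line yet 0.335 below the mean of TTF4.

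Among the de novo enzymes, Dnmt3b (chr2:153649450-153687730, plus strand) had 0.0889, 0.104, 0.152 and 0.169 in PTC11, PTC12, TTF1 and TTF4. It was the 1 gene of the 10 at which TTF and PTC lines did not overlap, as was the case for 23.9% of all genes. Its 4 values spanned less than 0.1, and TTF4 lay 0.0174 above TTF1. Dnmt3bos, an opposite-strand transcript, starts 836 bp from the annotated Dnmt3b start. Its fractions were 0.00303, 0.0696, 0.132 and 0.0977 in PTC11, PTC12, TTF1 and TTF4, highest in TTF1. Dnmt3a (chr12:3806007-3914443, plus strand) had 0.106, 0.0843, 0.0975 and 0.480 in the same order of lines. TTF4 stood 0.375 above the next line, while TTF1 lay between the PTC lines. The start of the cofactor Dnmt3l (chr10:78041947-78063622, plus strand) was methylated at 0.511 in line PTC11, 0.646 in line PTC12, 0.385 in line TTF1 and 0.859 in line TTF4. TTF1 was the lowest line and TTF4 the highest, so both extremes were TTF lines. These fractions belong to the outermost of the 3 annotated start groups of Dnmt3l. The groups 7895 and 13388 bp inside the gene lay outside the methylation window and have no value here.

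The windows measured for the erasers covered the full range. Those of Tet1 and Tet3 held no annotated start of a coding transcript, whereas those of Tet2 and Tdg did. Tet1 (chr10:62804570-62908996, minus strand) had 0.458, 0.779, 0.310 and 0.982 in PTC11, PTC12, TTF1 and TTF4, and Tet3 (chr6:83362373-83459084, minus strand) had 0.234, 0.556, 0.214 and 0.837. In both genes TTF4 was followed by PTC12 and the other lines, an order of the first 2 lines shared by 44.4% of all genes. Tet2 (chr3:133463679-133545139, minus strand) had 0.0278, 0.0183, 0.0180 and 0.0991 in PTC11, PTC12, TTF1 and TTF4. Tdg (chr10:82629828-82650799, plus strand) had 0.0665, 0.0322, 0.00904 and 0.219. Both were nearly unmethylated outside TTF4.

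Zfp57 (chr17:37001163-37010635, plus strand), the guardian of imprints, showed the widest gap of the 10 between TTF4 and the next line. Its fraction was 0.351 in line PTC11, 0.330 in line PTC12, 0.175 in line TTF1 and 0.933 in line TTF4, a gap of 0.582. TTF1 was the lowest line, so the TTF lines lay on either side of the PTC lines. These fractions belong to the outermost of the 4 annotated start groups of Zfp57, with 19 CpGs within 1000 bp. The other groups, with 51 to 62 CpGs, lay outside the methylation window and have no value here. When the lines were quantile normalized to 1 common distribution, the gap stayed above 0.2 at Zfp57 alone of the 10 genes (0.485, 0.337, 0.283 and 0.766), against 5.14% of all genes.

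The 10 starts fell into 2 groups by the number of CpGs in the window that the methylation table measured, and the split was made at 80 CpGs after the counts had been seen. Dnmt1, Dnmt3l, Tet1, Tet3 and Zfp57 held 19 to 32 CpGs, near the median of 25 over all genes. They are called CpG-poor only in comparison with the other members. Dnmt3a, Dnmt3b, Uhrf1, Tet2 and Tdg held 104 to 131. In every line each CpG-poor start was more methylated than each CpG-rich one. In TTF4 the CpG-poor starts lay between 0.837 and 0.982 and the CpG-rich ones between 0.0991 and 0.480, and in TTF1, where the groups came closest, between 0.175 and 0.597 and between 0.00904 and 0.152. Over all genes the median fraction was also lower at high CpG content. It was 0.828 below 20 CpGs and 0.172 at 80 or more in TTF4, and 0.50 and 0.0558 in PTC11. Between the lowest bins it changed little, with 0.851 at 20 to 39 CpGs in TTF4 and 0.483 in PTC11. Spearman's rho across the 50657 genes was -0.625, -0.629, -0.575 and -0.565 in PTC11, PTC12, TTF1 and TTF4, a description only, since genes of 1 library are not independent. Of the 5 CpG-rich members 2, Dnmt3a and Uhrf1, were at least 0.2 higher in TTF4 than in the next line, against 12.6% of the 9967 genes with 80 CpGs or more.

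**Figure D2:**
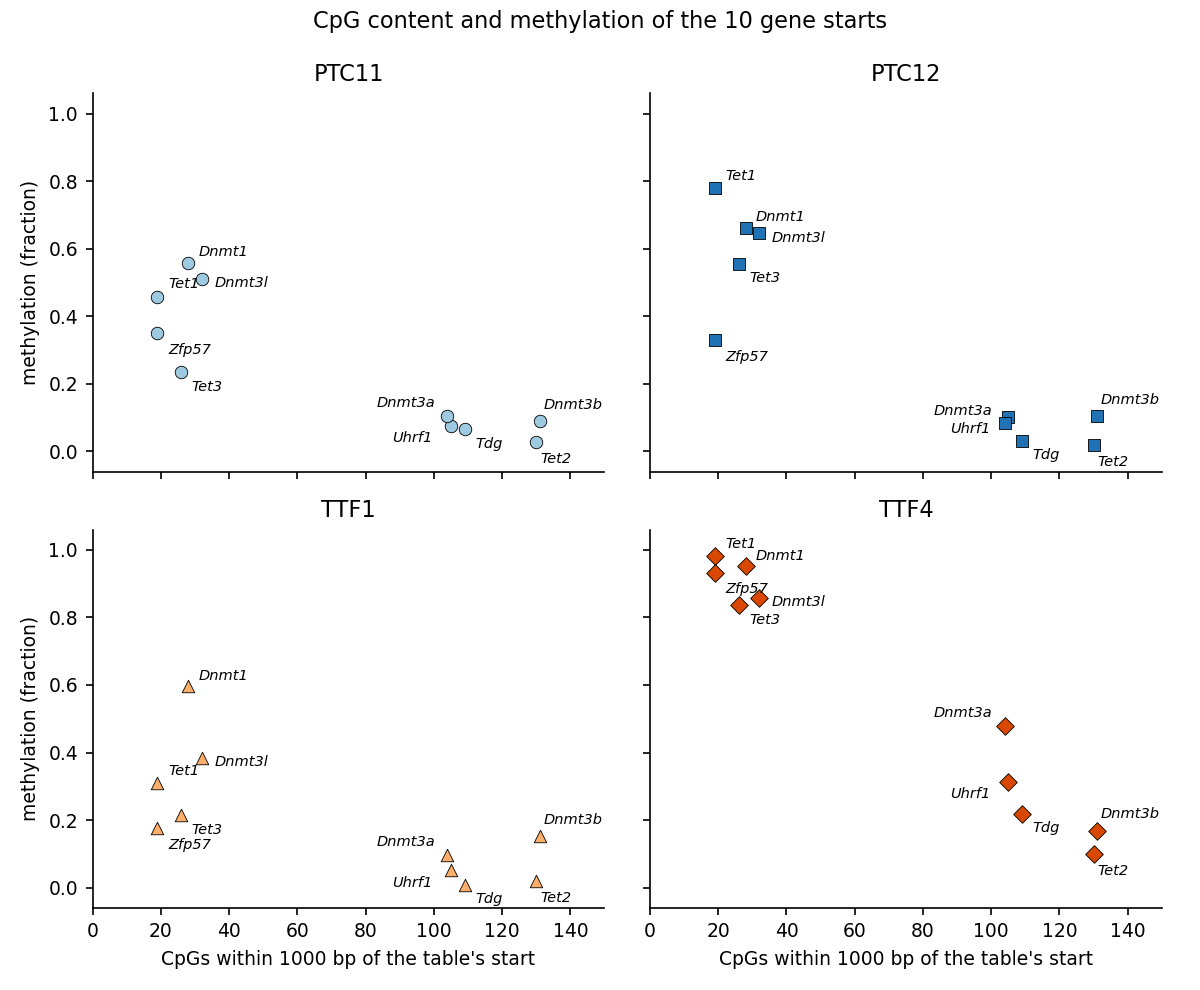
Number of CpGs within 1000 bp of the start used by the methylation table (horizontal axis) against the fraction methylated (vertical axis) for the 10 genes, 1 panel per line. The 5 starts with 19 to 32 CpGs lie above the 5 with 104 to 131 CpGs in all 4 panels, and TTF4 shows Dnmt3a at 0.480 and Uhrf1 at 0.314 above the other CpG-rich starts.

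Which start a table measured mattered for several of these genes. The tables carry 1 start per gene, whereas GENCODE annotates 20 separate start groups of coding transcripts for the 10 genes. Of these, 12 lay outside the methylation window of their gene and 6 outside the H3K4me3 window, which runs from 2000 bp before to 3000 bp after the start. Dnmt3a, Tet1 and Tet3 had no such start inside the methylation window, although the first Dnmt3a group began only 1023 bp from the start of the table. The second Dnmt3a group lay 85721 bp away, so that internal start has no methylation value here. For Tet3 the methylation table starts 17406 bp upstream of the histone table. Another annotated Tet3 start, with 174 CpGs within 1000 bp, lay 2692 bp from the methylation start and outside both windows. An entry without a gene name, 30 bp from it, had H3K4me3 of 2.52, 5.10, 6.49 and 3.82 RPKM in PTC11, PTC12, TTF1 and TTF4. The histone start of Tet3 lies 80 bp from the start of B230319C09Rik, an opposite-strand transcript, whose fraction was 0.177 in line PTC11, 0.233 in line PTC12, 0.257 in line TTF1 and 0.188 in line TTF4. These 4 values lay within 0.1 of each other, unlike the 0.214 to 0.837 listed for Tet3 itself. The inner start group of Dnmt1, with 75 CpGs within 1000 bp against 28 at the outer one, lies 6909 bp inside the gene, outside both windows, and no other gene of the methylation table starts within 1000 bp of it. For Tet1 the 2 tables use starts 9878 bp apart. The RefSeq start of Tet1, at position 62887324, follows a 250-base stretch with 15 CpGs (27.3% have at least as many). It lay outside both windows.

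H3K4me3 at the gene starts was listed in all 4 lines for 6 of the 10 genes, Uhrf1, Dnmt3a, Dnmt3b, Tet2, Tet3 and Tdg. The other 4 were those with CpG-poor starts in the histone table (19 to 32 CpGs): Dnmt1 had 1.79 RPKM in PTC12 alone, Dnmt3l 2.45 in TTF1 alone, Tet1 3.82 in PTC12 and 3.11 in TTF1, and Zfp57 none. A value in PTC12 alone occurred for 4.06% of all listed genes, in TTF1 alone for 2.90%, in these 2 lines for 4.51% and in none for 50.5%. These 2 lines also had the most genes with a peak, and the part of that in the missing values was not tested. Annotated starts of Dnmt1, Dnmt3l and Tet1 further inside each gene lay outside the H3K4me3 window. Whether those starts carry H3K4me3 was thus not measured.

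Of the maintenance pair, Uhrf1 had 3.86, 7.01, 6.62 and 3.67 RPKM in PTC11, PTC12, TTF1 and TTF4. It ranked above 60.3%, 91.8%, 79.4% and 51.3% of the genes with a value in these libraries. PTC12 and TTF1 were high and PTC11 and TTF4 low, 1 line of each origin on either side.

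Dnmt3b, which pluripotent cells express strongly, had 4.53 RPKM in line PTC11, 6.0 in line PTC12, 5.86 in line TTF1 and 5.01 in line TTF4, and it ranked above 89.0%, 77.9%, 66.6% and 94.6% of genes. Its values were 5.26 ± 1.04 in PTC and 5.43 ± 0.606 in TTF (mean ± SD, n = 2), closer between the origins than within them. Its start is shared with the opposite-strand transcript 7530422B04Rik, whose value in PTC11 was the same. Dnmt3a had 2.73, 4.91, 5.36 and 3.64 RPKM in the same order of lines, from the rank above 8.89% of genes in PTC11 to that above 56.7% in PTC12 and TTF1. Near the internal start of its shorter isoform, the neighbouring gene AC159324.1 had 2.55, 3.52, 6.12 and 3.07 RPKM.

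Among the erasers, Tet2 had 3.26, 5.02, 5.32 and 3.65 RPKM in PTC11, PTC12, TTF1 and TTF4. Tet3 had 3.43, 4.81, 5.95 and 3.03, the same 4 values that the table lists for B230319C09Rik, so that the peak cannot be given to 1 of the 2 genes. In Tet2, Tet3, Uhrf1, Dnmt3a and Dnmt3b, 5 of 6 members, both PTC12 and TTF1 exceeded both PTC11 and TTF4, as 81.4% of 13709 genes did.

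Tdg was the exception. It had 3.30 RPKM in PTC11 and 3.39 in PTC12 against 5.86 in TTF1 and 4.30 in TTF4. Both TTF lines exceeded both PTC lines, with 3.35 ± 0.0621 in PTC and 5.08 ± 1.10 in TTF (mean ± SD, n = 2), and the origins failed to overlap in 8.21% of all genes. The difference was 0.47 on the log2(RPKM + 1) scale (SE 0.39, 95% interval -0.30 to 1.24), and limma gave an adjusted p of 1.00 and an unadjusted p of 0.230. After quantile normalization the unadjusted p was 0.0499 and the adjusted p again 1.00, and over all 11 settings of the fit the adjusted p lay between 0.99 and 1.00. At Tdg methylation was lowest in TTF1 and highest in TTF4, so it did not divide the lines as H3K4me3 did.

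**Figure D3:**
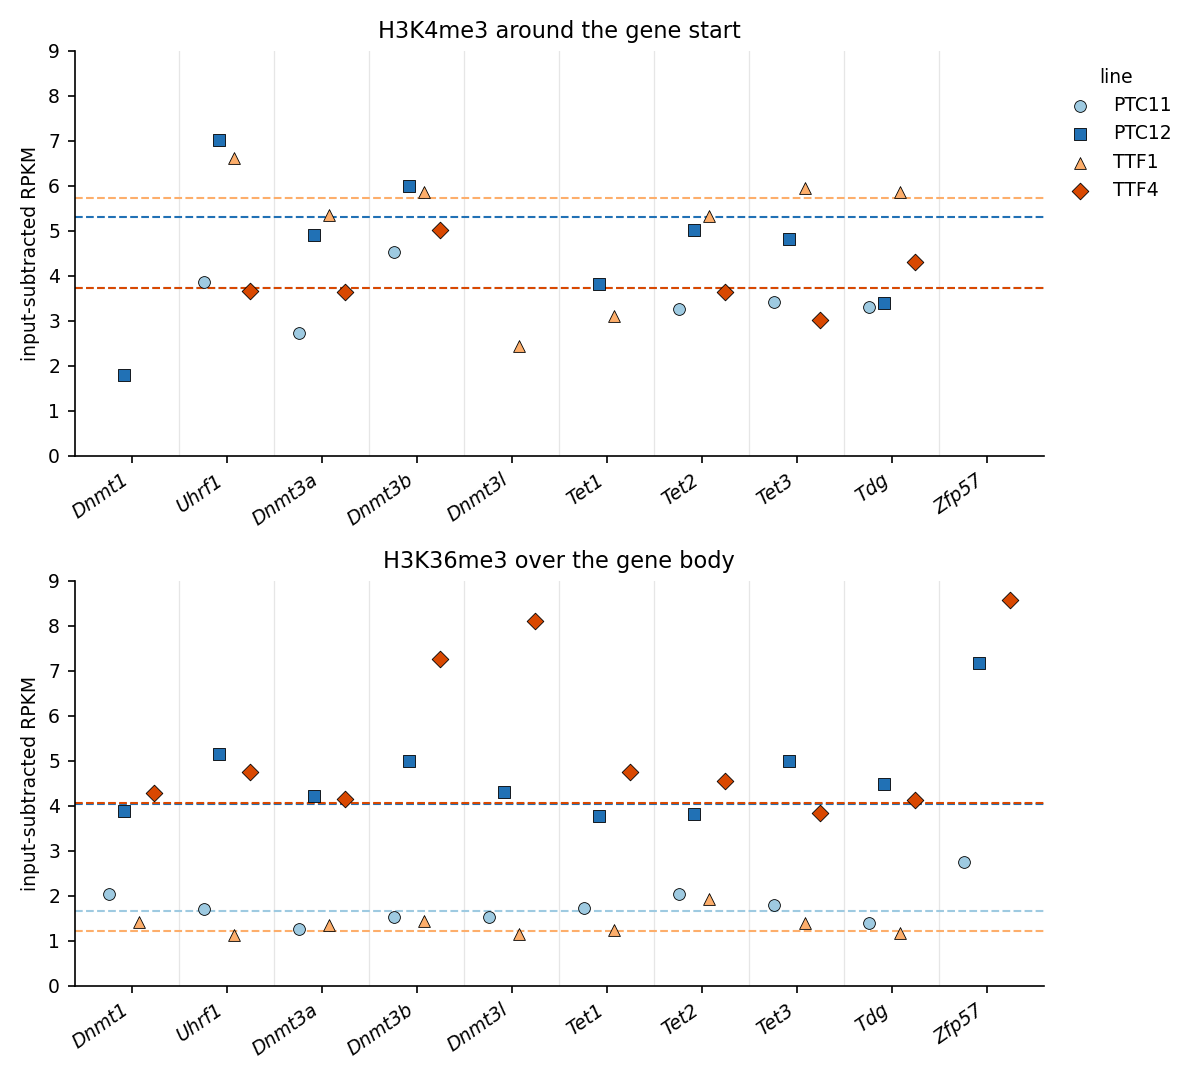
Input-subtracted RPKM of H3K4me3 (top) and H3K36me3 (bottom) for the 10 genes, 1 point per line; no point means no value, and dashed lines give the median of each line over genes with a value in all 4. In the top panel Tdg is the 1 gene whose TTF points (5.86 and 4.30) both lie above its PTC points, and in the bottom panel PTC12 and TTF4 lie above PTC11 and TTF1 throughout.

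H3K36me3 over the gene body was listed in all 4 lines for 9 of the 10 genes, and Zfp57 lacked a value in TTF1. In all 9, both PTC12 and TTF4 exceeded both PTC11 and TTF1, as did 93.6% of 17039 genes. Over those genes the medians were 1.66 RPKM in line PTC11, 4.04 in line PTC12, 1.21 in line TTF1 and 4.07 in line TTF4, and the medians of the 9 members were 1.71, 4.31, 1.35 and 4.55. The division ran within each origin, so no member separated TTF from PTC, whereas 3.50% of all genes did.

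In TTF4, 3 members stood high. Dnmt3l had 1.53, 4.31, 1.16 and 8.10 RPKM in PTC11, PTC12, TTF1 and TTF4, and its rank rose from above 42.5%, 61.0% and 47.7% of genes to above 97.5% in TTF4. Dnmt3b had 1.54, 5.00, 1.44 and 7.27 RPKM and ranked above 43.7%, 74.1%, 75.2% and 95.3%. The TTF4 value of Dnmt3b was also that of 7530422B04Rik, which the gene body overlaps. Zfp57 had 2.75 RPKM in PTC11, 7.17 in PTC12 and 8.56 in TTF4, above 96.7%, 92.8% and 98.4% of genes in these libraries. It was thus among the highest genes in each line that listed it, although none of the 4 lines had an H3K4me3 value at its start. Dnmt1, with an H3K4me3 value in PTC12 alone, had H3K36me3 of 2.03 in line PTC11, 3.88 in line PTC12, 1.41 in line TTF1 and 4.29 in line TTF4, and it ranked above 81.7%, 50.0%, 72.9% and 58.2% of genes.

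The remaining members ranked above 23.2% (Dnmt3a in PTC11) to 93.7% (Tet2 in TTF1) of the genes in their libraries. Uhrf1 had 1.71, 5.15, 1.14 and 4.75 RPKM and Dnmt3a 1.26, 4.22, 1.35 and 4.14 in PTC11, PTC12, TTF1 and TTF4. Tet1 had 1.73, 3.78, 1.25 and 4.75, and Tet3 1.79, 5.00, 1.39 and 3.83. Tet2 had 2.05, 3.81, 1.93 and 4.55, and its rank was highest in PTC11 and TTF1, above 82.8% and 93.7% of genes. Tdg had 1.40, 4.48, 1.17 and 4.13, and its TTF lines did not stand above its PTC lines as in H3K4me3. TTF4 was the highest line in 5 of the 9 genes, against 48.4% of all genes.

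H3K27me3, the mark of repression, had no value at any of the 10 genes in any of the 4 libraries. That mark was listed for only 11 to 144 genes per library, so a level below peak calling was not detectable and no absence can be read from it.

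No member differed between the origins by limma in any assay. For H3K4me3 0 of 6 members passed an adjusted p of 0.05, against 0.481% of the 13709 genes tested, and 0 had an unadjusted p under 0.05. For H3K36me3 0 of 9 passed, against 0.112% of 17039 genes, and for methylation, with the mean of each line subtracted, 0 of 10 passed, against 0.00395% of 50657 genes. Both had 0 members under an unadjusted p of 0.05 as well. The differences, TTF minus PTC, ran from -0.06 at Uhrf1 to 0.47 at Tdg for H3K4me3 and from -0.27 at Tet3 to 0.27 at Dnmt3l for H3K36me3 (both log2). For the centred fraction they ran from -0.06 at Tet1 to 0.13 at Zfp57. The intervals were wide. For Dnmt3b, the 95% interval was -0.96 to 1.05 in H3K4me3, -2.13 to 2.53 in H3K36me3 and -0.28 to 0.24 in methylation, so these lines leave room for sizeable differences in either direction. The p-values measure only the spread between lines. That spread was estimated by limma from all genes along a trend with level, and not from the lines of each gene alone.

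**Figure D4:**
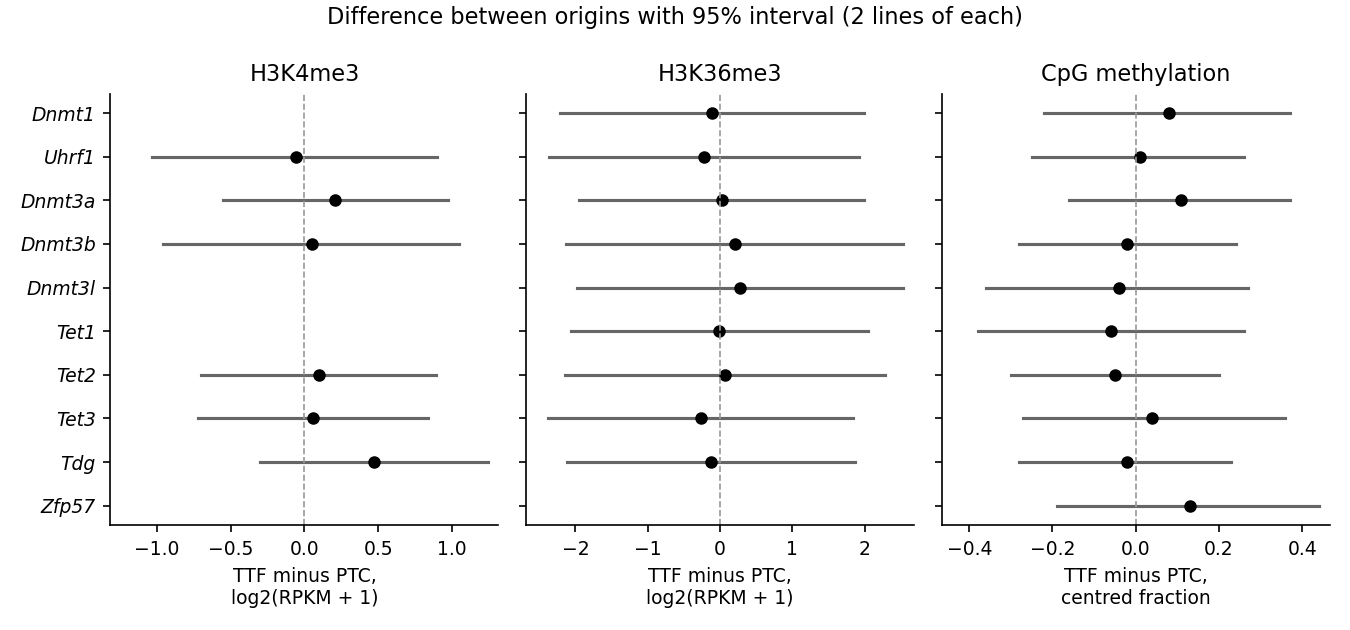
Difference between TTF and PTC (point) with its 95% interval (bar) from limma for each gene with a value in all 4 lines, on the log2(RPKM + 1) scale for the histone marks and as the centred fraction for methylation. Every interval includes 0, and those of H3K36me3 reach beyond 1 on both sides at all 9 genes.

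The median difference of the members was 0.08 against 0.04 over all genes for H3K4me3 (6 members), -0.01 against -0.14 for H3K36me3 (9) and -0.01 against -0.01 for methylation (10). With 1 line left out in turn the members' median ran from -0.13 to 0.38, from -0.68 to 0.53 and from 0.0052 to 0.088. Its sign thus changed among these fits for both histone marks. For methylation it was positive in each of them, against -0.01 with all lines.

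Other genes of the pathway were read from lists. The 5 lists held 45 genes: readers of methylated DNA, base excision repair after Tet oxidation, partners and recruiters of the methyltransferases, partners and regulators of Tet, and enzymes of methyl donor supply. Of these, 37 could be tested for H3K4me3, 31 for H3K36me3 and 45 for methylation, and 0 passed the adjusted threshold in either direction in limma. Unadjusted p-values under 0.05 were found for 1, 0 and 1 of them. The medians of the 5 lists lay between -0.02 and 0.16 for H3K4me3, between -0.40 and -0.03 for H3K36me3 and between -0.08 and 0.02 for methylation.

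In H3K4me3 the largest difference of the 37 genes tested was at Polb, the repair polymerase that fills the gap left by excision, with 4.36, 4.48, 6.06 and 6.08 RPKM in PTC11, PTC12, TTF1 and TTF4. The TTF lines lay above the PTC lines, by 0.38 on the log2 scale (SE 0.50, limma adjusted p = 1.00). The smallest was at Mbd4, a glycosylase that binds methylated CpGs, at -0.29 (SE 0.40, limma adjusted p = 1.00), with 4.42, 4.98, 4.63 and 2.85 RPKM. The gene with the unadjusted p under 0.05, named after its values were seen, was Setdb1, the histone methyltransferase recruited with Zfp57 and Trim28 (1.19, 1.37, 2.12 and 1.81 RPKM). Its limma adjusted p was 1.00.

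In H3K36me3 Polb was again the largest, at 0.19 (SE 1.19), and Mat2a, which makes the methyl donor, the smallest, at -0.74 (SE 0.99), both with a limma adjusted p of 1.00. In methylation the smallest difference was at Setdb1, at -0.23 (SE 0.14, limma adjusted p = 1.00), where TTF4 was at 0.00114 against 0.184 in PTC11, 0.320 in PTC12 and 0.211 in TTF1. Setdb1 was thus lowest in the line that was highest at all 10 members.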

How the data were processed

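The study measured H3K4me3, H3K36me3 and H3K27me3 by ChIP-seq and CpG methylation by nanopore sequencing in 4 mouse iPSC lines, 2 from PTC and 2 from TTF, and the sample labels gave the origin and line. The authors deposited histone values as RPKM for each gene in each library. Their reads were aligned to mm10 with Bowtie2 (version 2.1.0), and the authors then called peaks against input with MACS2 (version 2.0.10), counted reads per peak with bedtools (version 2.17.0), subtracted the input RPKM and averaged peaks from 2 kb before to 3 kb after the start, or over the gene body for H3K36me3. A gene enters a comparison only where peaks were called. For methylation the authors deposited fractions of methylated CpGs, from reads aligned with Minimap2 (version 2.17-r941), averaged over 300 bp windows within 1 kb of the start, and not yet centred. The tables give no counts or coverage, so precision rests on the 2 lines per origin.

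The 10 genes and the gene lists were chosen with earlier results of these data known. For genes with a value in all 4 lines, limma (version 3.58.1, under R 4.3.3) was run with eBayes and a variance trend on log2(RPKM + 1) or on the fraction minus the mean of its line, with p-values adjusted by Benjamini-Hochberg across every gene fitted and called at 0.05. The step was run on simulated data with a known shift between origins, and recovery of the shift was required only under a tight simulated spread. That run does not show how often a shift would be found at the spread of these lines. H3K27me3 was not tested. All members are named. Of the other lists, genes passing the threshold and the largest and smallest difference per assay are named. The largest in methylation is not reported here. Gene positions are those of the tables on mm10. CpGs and starts were read from GRCm38.p6 and GENCODE annotation, starts within 500 bp forming 1 group, and promoters from RefSeq. Ranks are the share of genes with a value in the library that lay below the member. Python 3.11.15, pandas 2.3.3 and scipy 1.17.1 served for the remaining steps. The alternatives varied the pseudocount (0.1), the scaling or centring of lines, the filter on low values (mean of at least 1 RPKM), missing values, the variance trend, chromosomes X and Y, and each line left out in turn.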

Additional observations from a re-analysis of the deposited data

How the results depend on the processing

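No member passed the adjusted threshold in any setting of the limma fit, and 3 of 257 fits of a member gave an unadjusted p under 0.05. These were Tdg for H3K4me3 with the median of each line subtracted or with quantile normalization, and Zfp57 methylation without TTF1. The limma adjusted p of Zfp57 was then 0.33, against 0.33 to 1.00 over its 9 settings. The sign of the small differences was not stable for most members. Quantile normalization turned H3K4me3 to -0.0042 at Dnmt3b and -0.0082 at Tet3, H3K36me3 to 0.095 at Tet1 and 0.073 at Tdg, and methylation to 0.035 at Dnmt3b and 0.0082 at Tet2. Subtracting the median of each line turned H3K36me3 to 0.022 at Dnmt1, 0.12 at Tet1 and 0.0075 at Tdg, and it moved the median of all genes in that mark from -0.14 to -0.0077. Without centring, methylation turned to 0.064 at Dnmt3b, 0.043 at Dnmt3l, 0.027 at Tet1, 0.036 at Tet2 and 0.065 at Tdg.

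Leaving out each line in turn left 1 origin with a single line, which limma then takes to vary like the 2 lines of the other origin. It changed a sign in all 3 assays, more so in H3K36me3. For H3K4me3 the differences then ran from -0.43 to 0.30 at Uhrf1, -0.12 to 0.54 at Dnmt3a, -0.12 to 0.22 at Dnmt3b, -0.15 to 0.35 at Tet2 and -0.33 to 0.45 at Tet3. For H3K36me3 the differences then ran from -0.67 to 0.46 at Dnmt1, -0.93 to 0.49 at Uhrf1, -0.59 to 0.62 at Dnmt3a, -0.68 to 1.08 at Dnmt3b, -0.77 to 1.31 at Dnmt3l, -0.68 to 0.67 at Tet1, -0.39 to 0.53 at Tet2, -0.82 to 0.28 at Tet3 and -0.74 to 0.50 at Tdg. For methylation the differences then ran from -0.036 to 0.048 at Uhrf1, -0.15 to 0.10 at Dnmt3b, -0.15 to 0.058 at Dnmt3l, -0.26 to 0.14 at Tet1, -0.15 to 0.043 at Tet2, -0.13 to 0.22 at Tet3, -0.095 to 0.050 at Tdg and -0.12 to 0.37 at Zfp57. The exceptions, whose sign held, were Tdg for H3K4me3 and Dnmt1 and Dnmt3a for methylation.

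Over all genes, the limma calls were 66 for H3K4me3, 19 for H3K36me3 and 2 for methylation. They became 102 and 44 for the marks with a pseudocount of 0.1, and 467 and 68 with a value in at least 1 line of each origin. They fell to 0 in both marks with quantile normalization, median subtraction, a mean of at least 1 RPKM or no variance trend (at an unadjusted p under 0.05: 318, 298, 14 and 3 genes for H3K4me3 and 502, 358, 4 and 4 for H3K36me3). For methylation they were 0 without centring and 0 with quantile normalization (1006 and 2438 genes at an unadjusted p under 0.05), 9 without chromosomes X and Y and 1 without the variance trend. Leaving out a line gave 59 to 108, 1 to 31 and 0 to 1020 calls. The 108 and the 1020 were found without TTF1, the 31 without PTC11, the 1 without TTF4 and the 0 (1786 genes unadjusted) without PTC12. For H3K36me3 the calls were 8 without TTF1, and for methylation 5 without PTC11 and 227 without TTF4. The cause was not tested. Among the members by line, quantile normalization left origins without overlap at 2 genes for H3K4me3 (Dnmt3a and Tdg), 1 for H3K36me3 (Dnmt3b) and 1 for methylation (Dnmt1 in place of Dnmt3b), against 28.5%, 30.1% and 33.6% of all genes. It left PTC12 and TTF1 on top at 2 of 6 genes for H3K4me3 (22.4% of all genes) and PTC12 and TTF4 on top at 3 of 9 for H3K36me3 (22.2%), where TTF4 was highest at 3 (25.1%). In methylation TTF4 was then highest at 7 of 10 genes (25.7%) and at least 0.2 above the next line at 1 (5.14%). The mean promoter methylation kept its difference (0.0865 to 0.0871). No paired analysis was possible because the PTC and TTF lines share no line numbers. With 2 clones per origin, and neither reads nor coverage in the tables, a difference between origins cannot be told apart from a difference between clones.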
